A study of Arabidopsis thaliana with 4 samples.

Results

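Plates 21 to 28 of the TA series form the first long stretch of low ratios on a tiling array hybridised with chromatin of Arabidopsis thaliana seedlings. They were chosen as every tile whose ID names the TA series and a plate number from 21 to 28 and that had a value in all columns. This gave 713 tiles of 9304 in the TA series and of 21707 on the whole array. The choice rests on the same log ratios that are described here, so the low level is a description and was not tested.

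The assay was chromatin immunoprecipitation on an array (ChIP-chip) against histone H3 acetylated at lysine 56 (H3K56ac), in seedlings of the col-0 ecotype aged 10 days and given no treatment. DNA recovered with the antibody (IP) and DNA of the starting chromatin (input) were labelled with different dyes and hybridised together. The design held no other genotype, treatment or time, and the 4 arrays were 2 chromatin preparations with a dye swap each. Replicate 1 stands for preparation I and replicate 2 for preparation II. Whole seedlings were used, so each value is an average over all cell types of the plant. Since the columns of each dye swap did not differ at any of the 21707 tiles, a preparation was counted as 1 sample, which leaves n = 2.

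Lysine 56 lies on the lateral surface of the histone octamer, near the place where DNA enters and leaves the nucleosome. In budding yeast it is acetylated on newly made H3 before the histone is placed behind the replication fork, and the mark is also tied to histone turnover at active genes. In plants the mark is associated with transcribed genes, whereas the silent chromatin around centromeres is generally poor in histone acetylation. No gene, coordinate or sequence is paired with the tile IDs in the sources used here, so none is given for these tiles. The IDs give a plate, a row (A to H) and a well (1 to 12), and tiles are described in that order.

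Values are the deposited log ratio of the IP and input channels after each replicate's median over all tiles was taken off. Neither the base of the logarithm nor the numerator is given in the sources used here, so a difference of 1 is called 1 log unit, and "low" means a low ratio and not a low amount of the mark. A value of 0 is the array median. A tile is said to be called above or below when limma's test of its mean against 0 gave an adjusted p under 0.05 over all 21707 tiles. That test was made on the contrast by which the stretch was chosen, so the counts of calls only describe the stretch and test nothing about it.

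The whole of plates 21 to 28 lay low in both preparations. The median was −0.63 in replicate 1 and −0.54 in replicate 2, a mean of −0.58 ± 0.0687 (SD, n = 2). All other TA tiles, 8591 in number, had medians of −0.14 and −0.11. The stretch thus lay 0.49 log units lower than the rest of its series in replicate 1 and 0.42 lower in replicate 2, on average −0.46 ± 0.0515 (SD of the replicates, n = 2). Both replicates placed the stretch lower, and the difference was not tested because the stretch was chosen on these ratios. The rest of the series includes a longer low region in plates 37 to 51, and without it the difference grew to −0.56.

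Most tiles of the stretch shared the low level. Both replicates were below 0 at 548 of the 713 tiles (76.9%) and above 0 at 102 (14.3%), and they fell on opposite sides at the remaining 63. Among all other TA tiles both replicates were below 0 at 51.1% and above 0 at 35.0%. In the stretch 507 tiles (71.1%) were called below the array median, where the array as a whole had 30.9%, and 76 tiles (10.7%) were called above it, where the array had 33.3%. A mean of −1 or lower was found at 105 tiles of the stretch (14.7%, against 3.07% of the array) and a mean of 1 or higher at 24 tiles (3.37%, against 10.4%). With 7.66% of the TA tiles the stretch held 27.3% of the 385 TA tiles at −1 or lower and 3.29% of the 730 at 1 or higher.

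The plates of the stretch fell into a lower and a less low set. In replicate 1 the 8 plate medians ran from −0.78 in plate 26 to −0.51 in plate 28, and in replicate 2 from −0.69 in plate 26 to −0.40 in plate 25. Plate 26 was the lowest in both. Plates 22, 23 and 24 followed at −0.67 ± 0.00490, −0.67 ± 0.0231 and −0.67 ± 0.0557 (mean ± SD over replicates, n = 2), and their order differed between the replicates. Plates 27, 21, 28 and 25 lay at −0.50 ± 0.133, −0.49 ± 0.0681, −0.49 ± 0.028 and −0.47 ± 0.0979, and their order too differed between the replicates. All plates were read in the same 2 preparations, and within each replicate every plate of the lower set lay below every plate of the other. The differences between plates were not tested. Replicate 1 was the lower of the replicates in 7 of the 8 plates. Plate 22, the exception, was also the plate without any tile called above.

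**Figure D1:**
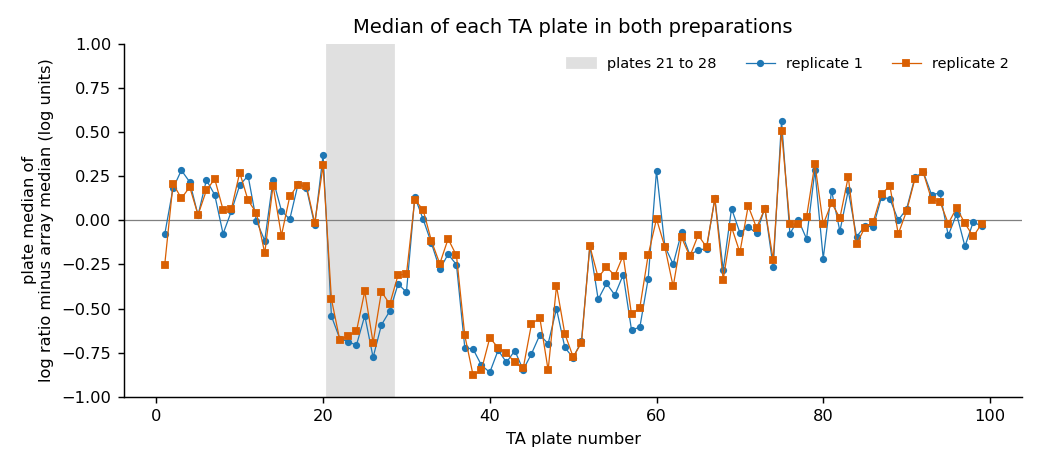
Median over the tiles of each TA plate (vertical axis, log ratio minus the array median in log units) against plate number, with 1 point per plate and replicate; the grey band marks plates 21 to 28. Plate 20 lies at 0.37 and 0.31 in replicates 1 and 2 and plate 21 at −0.54 and −0.45, while after plate 28 the medians stay low in plates 29 and 30 and reach 0.13 and 0.12 in plate 31.

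Just outside the choice of plates, plate 20 had medians of 0.37 and 0.31 in replicates 1 and 2, and plate 29 had −0.36 and −0.31. The first and last plates inside it, 21 and 28, had −0.54 and −0.45, and −0.51 and −0.47. Plate 29 was thus closer to the stretch than plate 20 was. Further out, plates 29 to 36 together had medians of −0.17 and −0.13, and plates 11 to 20 had 0.10 and 0.11. Outside the stretch, 16 of the 91 other TA plates had a median as low as that of plate 25, the highest of the stretch, and 14 of these were in plates 37 to 51.

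At the scale of plates the start was steep. From plate 20 to plate 21 the median changed by −0.91 in replicate 1 and −0.76 in replicate 2. Averaged over replicates this was −0.84, the largest fall among the 98 steps between successive TA plates, and the second largest fall was −0.58, into plate 76. The step set out from a high plate, since plate 20 ranked 98 of the 99 TA plates counted from the lowest. Its median averaged 0.34 over replicates, against −0.02 in plate 19 and 0.11 in plates 11 to 20 together. The largest rise anywhere in the series was 0.78, into plate 75.

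Tile by tile, the start at the plate boundary was not sharp. The last tiles of plate 20 were high. TA20H09 stood at 0.26 in both replicates, TA20H10 at 0.82 and 0.72, TA20H11 at 0.91 and 0.92, and TA20H12, the last of the plate, at 1.39 and 1.77. The first tiles of plate 21 were of middling level. TA21A01 stood at 0.31 and 0.44, TA21A02 at −0.20 and −0.29, TA21A03 at −0.39 and −0.40, and TA21A04 at 0.15 and 0.30. Values therefore dropped by more than 1 log unit after TA20H12 but only to about the array median, and not to the level of the stretch.

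The lowest tile of the stretch came next. TA21A05 read −1.86 in replicate 1 and −1.89 in replicate 2 (mean −1.87 ± 0.0267, SD, n = 2), and the following tile, TA21A06, read 0.904 and 0.995. The rise of 2.82 ± 0.0911 between them was the largest step between adjacent tiles in the stretch. The low value did not extend to either neighbour, and the 3 tiles after it were called above.

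Below row A the level of plate 21 went down over several rows. The row medians, as means of both replicates, were 0.30 in row A, −0.17 in row B, −0.32 in row C and −0.24 in row D, and then −0.64 in row E and −0.82 in row F. The rows of plate 20 had lain between −0.03 and 0.62. The descent thus took about 4 rows of plate 21. The size of the step at the boundary depended accordingly on how many tiles were compared. With 48 tiles on each side it was −0.59 in replicate 1 and −0.38 in replicate 2 (mean −0.49 ± 0.151, SD, n = 2), with 96 it was −0.88, and with 12 it was −0.04 and of opposite sign in the replicates (−0.18 and 0.10). When the boundary was moved by up to 192 tiles either way, the largest fall over 48 tiles was found at TA21B07 in replicate 1 (−0.82), at TA21B08 in replicate 2 (−0.77) and at TA21D07 in their mean (−0.80), which is 16, 17 and 40 tiles into the stretch.

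**Figure D2:**
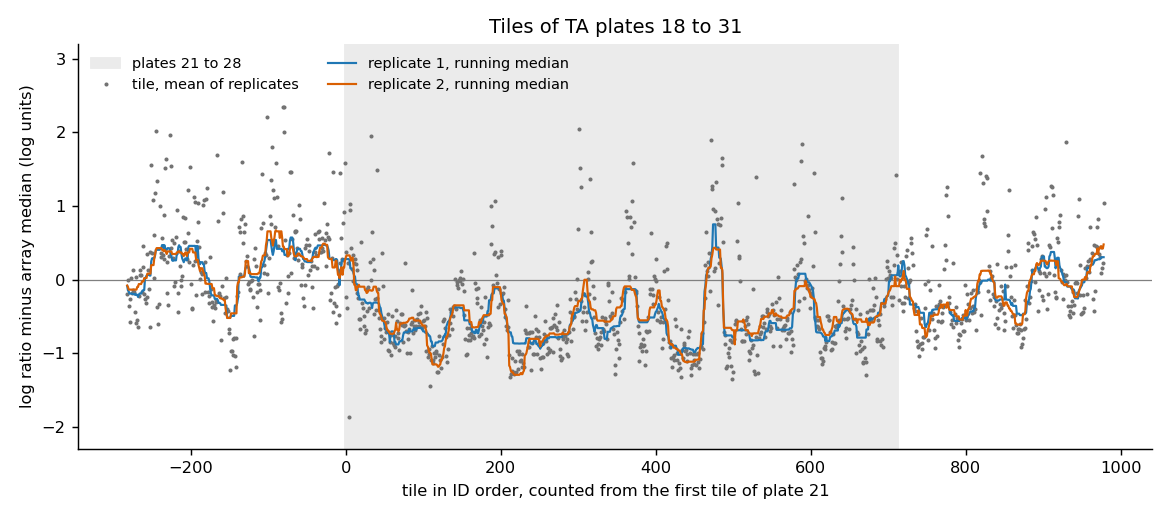
Log ratio minus the array median (vertical axis, log units) of each tile of TA plates 18 to 31 in ID order (grey points, mean of both replicates), counted from the first tile of plate 21, with a running median over 25 tiles for each replicate; the shaded area is plates 21 to 28. Inside it the running medians reach −1.02 in replicate 1 and −1.30 in replicate 2 at their lowest, and are highest in plate 26, at 0.75 and 0.43.

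The end of the stretch showed no comparable step at the plate boundary. With 48 tiles on each side of the boundary between plates 28 and 29 the step was 0.03 in replicate 1 and 0.18 in replicate 2 (mean 0.11 ± 0.108, SD, n = 2), no larger than its spread. With 12 tiles it was −0.31 ± 0.257 and with 96 it was 0.09 ± 0.0183. When this boundary was moved by up to 192 tiles either way, the largest rise over 48 tiles was 0.58 in replicate 1, at TA31A02, 0.65 in replicate 2, at TA30H09, and 0.53 in their mean, at TA28G04. These places lie 171 and 166 tiles after the boundary and 21 tiles before it. The replicates thus put the largest rise close together, around the start of plate 31, and only their mean put it elsewhere. The last tiles of plate 28 were high. TA28H09 read 0.51 and 0.47 in replicates 1 and 2, TA28H10 read 1.31 and 1.53, TA28H11 read 0.50 and 0.16, and TA28H12 read 0.19 and −0.19. The first tiles of plate 29 were near the array median, with TA29A01 at 0.35 and −0.16, TA29A02 at −0.41 and −0.15, TA29A03 at 0.04 and 0.20, and TA29A04 at 0.25 and 0.21. Row H of plate 28 had a median of 0.16 ± 0.250 (SD, n = 2), row G before it −0.34 and row A of plate 29 −0.14. Low rows came back in plate 29, where row C had a median of −0.85, and the median of whole plates crossed 0 only in plate 31.

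The stretch was interrupted by short groups of high tiles. The tiles called above numbered 10 in plate 21, none in plate 22, 10 in plate 23, 6 in plate 24, 13 in plate 25, 19 in plate 26, 10 in plate 27 and 8 in plate 28. They fell into 36 runs of consecutive tiles with a mean length of 2.11. A lone tile made up 21 of the runs, 2 runs had 2 tiles, and 13 runs had 3 to 6 tiles and together held 51 of the 76 tiles. Among all other TA tiles there were 890 such runs with a mean length of 2.56 and a longest of 23. There were 5.05 runs per 100 tiles in the stretch and 10.4 elsewhere in the series, and 58.3% against 37.1% of them were lone tiles. Other low regions had fewer such runs, with 1.78 per 100 tiles in plates 37 to 51 of TA and 0.93 in plates 17 to 29 of TC. Lone tiles made up 50% and 70% of those runs, and their mean lengths were 1.92 and 1.6. The share of tiles called above was 10.7% in the stretch and 26.5% elsewhere in the series. A lower share by itself tends to make such runs fewer and shorter.

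The 13 runs of 3 or more tiles were spread over every plate except plate 22. In the longest, TA25C07 to TA25C12, replicate 1 averaged 0.91 and replicate 2 averaged 0.87 (mean 0.89 ± 0.0261, SD, n = 2). Its tile TA25C07 read 0.84 and 0.86 in replicates 1 and 2, TA25C08 read 0.71 and 0.72, and TA25C09 read 0.32 and 0.36. The run then rose to its top, with TA25C10 at 1.10 and 1.04, TA25C11 at 1.59 and 1.57, and TA25C12 at 0.88 and 0.67. A run of 3, TA25C02 to TA25C04 with a mean of 0.76, lay in the same row, so that 9 of the 12 tiles of row C of plate 25 were called above and none below. The rows on either side, B and D, had no tile called above.

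Of the 2 runs with 5 tiles, TA26E07 to TA26E11 averaged 1.12 in replicate 1 and 1.002 in replicate 2. TA26E07 read 1.07 and 0.41, TA26E08 read 0.94 and 0.74, TA26E09 read 1.84 and 1.45, TA26E10 read 1.45 and 1.67, and TA26E11 read 0.30 and 0.74. Each tile was above 0 in both replicates, although the outer ones differed between them by more than 0.4. Plate 26 held 3 more runs of 4 tiles, TA26D05 to TA26D08 (mean 1.34), TA26D12 to TA26E03 (0.96) and TA26G05 to TA26G08 (0.54). Rows D and E of that plate together held 14 tiles called above, and the medians of these rows were 0.38 and 0.83. On either side of them, row C had a median of −0.83 and row F one of −1.06. A whole zone of about 2 rows in plate 26 therefore stood more than 1 log unit above its surroundings in both replicates. With these rows plate 26 had the widest spread of the stretch, from a lower quartile of −1.004 to an upper quartile of 0.13.

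The run TA27F05 to TA27F09 also had 5 tiles and was narrow and peaked. TA27F05 read 0.22 in replicate 1 and 0.35 in replicate 2, TA27F06 read 1.49 and 1.74, TA27F07 read 1.69 and 1.98, TA27F08 read 0.64 and 0.54, and TA27F09 read 0.56 and 0.43. The run rose and fell within 5 tiles in both replicates.

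The highest tiles of the stretch mostly lay within such runs. TA24F01 was the highest, with 2.21 in replicate 1 and 1.88 in replicate 2 (mean 2.04 ± 0.232, SD, n = 2), in the run TA24E12 to TA24F03. TA21C11 followed at 1.91 and 2.00 (1.96 ± 0.0636), TA26D05 at 1.66 and 2.14 (1.90 ± 0.341), TA27F07 at the values above (1.84 ± 0.207) and TA26E09 likewise (1.65 ± 0.272). The order of the first 4 differed between the replicates. TA21C11 differed from the others in being alone, with a fall of 1.96 to the next tile and a rise of 1.72 from the one before. Of the 24 tiles at 1 or higher, 22 reached 1 in both replicates, 16 had both neighbours called above, 3 had 1 such neighbour and 5 had none. At 3 of the 24 a neighbour was called below.

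High tiles of the stretch were fewer than elsewhere in the series, and their surroundings were lower mainly at a distance. The 95th percentile of the mean was 0.75 in the stretch and 1.25 in all other TA tiles, and the 99th was 1.55 and 1.78. For the flanks, tiles were picked at a fixed height, which sets the level at the centre. Tiles at 1 or higher in replicate 1 (26 in the stretch and 754 in the rest of TA) had a median in replicate 2 of 1.45 in the stretch and 1.28 in the rest. Chosen in replicate 2 and read in replicate 1, the medians were 1.34 over 25 tiles and 1.33 over 689. At 1 tile to the right the medians in replicate 2 were 0.65 and 0.59, and at 2 tiles to the right 0.24 and 0.17. The flanks parted at greater distance, where 6 tiles to the right the median was −0.32 in the stretch and 0.12 in the rest. Read in replicate 1 at that place, the medians were −0.38 and 0.07. The low flank was not particular to the stretch. In plates 37 to 51 of TA the median at that place was −0.49 in replicate 2 (12 tiles) and −0.43 in replicate 1 (13 tiles). Low values away from high tiles follow from the choice of a low stretch. The same contrast was less even to the left, where replicate 2 read 0.17 in the stretch and 0.16 in the rest at 6 tiles. Replicate 1 read −0.06 and 0.11 there. Several of these centres lie in the same run, so they are not independent.

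**Figure D3:**
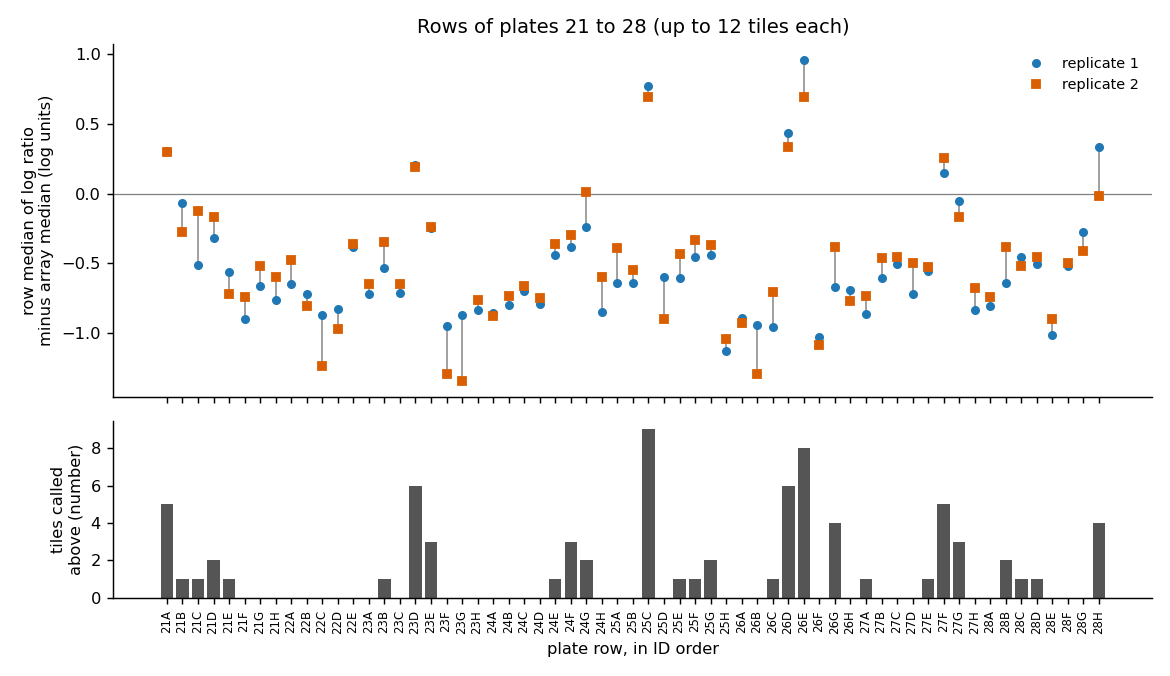
Upper panel, median of each plate row with 6 or more tiles in plates 21 to 28 in ID order (vertical axis, log ratio minus the array median in log units; circles replicate 1, squares replicate 2, joined by a line); lower panel, the number of tiles called above in that row. Rows 23D, 25C, 26D, 26E and 27F stand above 0 in both replicates inside the stretch, and row 21A at its start.

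By rows of up to 12 tiles the stretch had few steps between high and low. Of the 61 rows with 6 or more tiles, 53 had a median below 0 in both replicates and 6 a median above 0 in both. No tile was called above in 34 of the 61 rows. The 8 rows with 4 or more tiles called above (21A, 23D, 25C, 26D, 26E, 26G, 27F and 28H) held 47 of the 76 such tiles. By column of the plates, each of the 12 held between 4 and 11 of the tiles called above and had a median between −0.68 and −0.51.

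Long intervals without any high tile lay between these groups. The longest, TA21E03 to TA23B04, held 118 tiles and averaged −0.68 in replicate 1 and −0.66 in replicate 2. It spans 32 successive wells without a value, TA22F02 to TA22H09, and these wells are not analysed here. The tiles next to that gap, in rows F and H of plate 22, lay near the array median with row medians of −0.00 and 0.01 over 1 and 3 tiles. The second interval, TA23E07 to TA24E11, held 98 tiles and averaged −0.77 and −0.83. The third, TA28D04 to TA28H07, held 52 tiles at −0.53 and −0.48.

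Low tiles lay in longer runs than high ones. With 71.1% of its tiles called below and 10.7% above, a stretch chosen as low tends to have longer low runs by its shares alone. The lengths are therefore given as a description. The tiles called below made 49 runs of 10.3 tiles on average, whereas the 915 runs in the rest of the TA series averaged 3.59 tiles. In the other low regions described further on they were longer still, with 17.9 tiles on average in plates 37 to 51 of TA and 27.7 in plates 17 to 29 of TC. The longest, TA23F03 to TA24D12, had 80 tiles with a mean of −0.85 in replicate 1 and −0.93 in replicate 2. The next were TA21H10 to TA22E07 with 54 tiles (−0.73 and −0.83) and TA25G09 to TA26C08 with 47 (−0.96 and −0.997). Runs are counted in tile order, and wells without a value were passed over. Of the 768 wells of the 8 plates 55 had no value, 36 of them in plate 22.

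The longest run at −1 or lower lay in plate 23, which held 24 such tiles, as many as plate 26. TA23F04 to TA23G01 had 10 tiles that averaged −1.05 in replicate 1 and −1.38 in replicate 2 (mean −1.21 ± 0.233, SD, n = 2). In replicate 1 its tiles ran from −1.31 at TA23F07 to −0.78 at TA23F11, and in replicate 2 from −1.56 at TA23G01 to −1.17 at TA23F07. Replicate 2 was lower at 9 of the 10 tiles, and TA23F07, at −1.31 and −1.17, was the exception. The other tiles of the run were TA23F04 (mean −1.02), TA23F05 (−1.32), TA23F06 (−1.29), TA23F08 (−1.07), TA23F09 (−1.26), TA23F10 (−1.29), TA23F11 (−1.11), TA23F12 (−1.28) and TA23G01 (−1.26). Neighbouring tiles of this run overlap within 1 SD of the replicates, though with n = 2 such overlap does not show that they are alike.

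Further runs at −1 or lower were TA26B02 to TA26B11 (9 tiles, −0.95 and −1.29 in replicates 1 and 2) and TA23G05 to TA23G11 (7 tiles, −0.88 and −1.33). In all, 105 tiles made 43 such runs, of which 19 were lone tiles. The lowest tiles after TA21A05 were TA22B11 at −1.52 and −1.38, TA26F11 at −1.22 and −1.48, TA26A01 at −1.50 and −1.14, and TA23F05 at −1.15 and −1.49. The order of these 4 differed between the replicates, and by their means they lie at least 0.4 log units above TA21A05.

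The replicates ranked the tiles of the stretch alike but differed in their low range. Across the 713 tiles Pearson r was 0.890 and Spearman rho 0.834, against 0.918 and 0.893 across all other TA tiles. These are correlations across tiles of the same 2 preparations and carry no p. The SD of the difference between replicates was 0.288 in the stretch and 0.265 in the rest. The 5th percentile was −1.15 in replicate 1 and −1.30 in replicate 2, so replicate 2 reached lower even though its median was higher by 0.0971. Of the 6 rows with a median of −1 or lower (22C, 23F, 23G, 25H, 26B and 26F), replicate 2 was the lower in all but 25H. The largest disagreement was TA21C04, at −1.30 in replicate 1 and −0.15 in replicate 2 (SD 0.819, n = 2), which was called below. Among called tiles of the stretch 2 had opposite signs in the replicates.

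**Figure D4:**
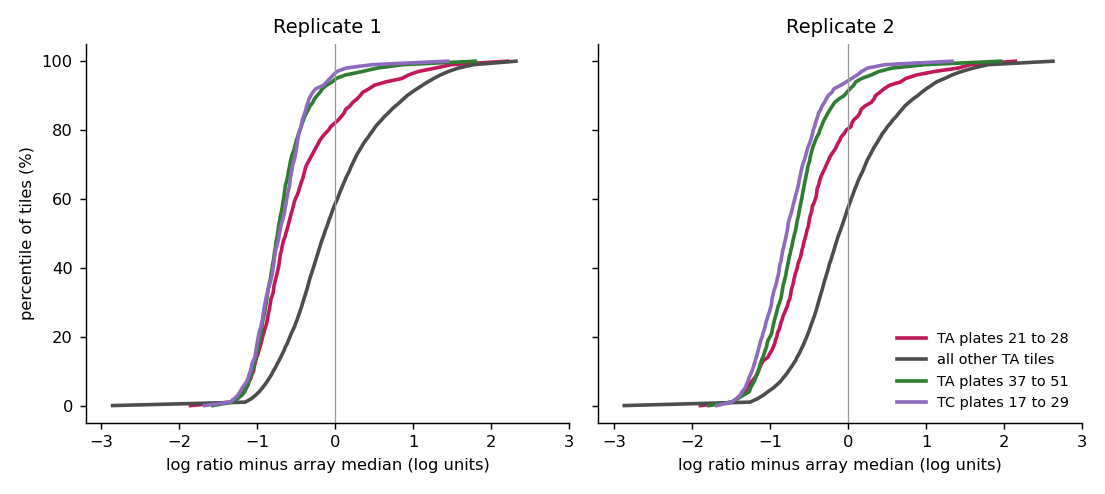
Percentile of tiles (vertical axis, %) against the log ratio minus the array median (horizontal axis, log units), in replicate 1 (left) and replicate 2 (right), for plates 21 to 28 of TA, all other TA tiles, plates 37 to 51 of TA and plates 17 to 29 of TC. The curve of plates 21 to 28 runs with the other low regions in its lower part and lies to their right in its upper part. Its 95th percentile is 0.86 and 0.74 in replicates 1 and 2. It nears the curve of the other TA tiles only at the top, where the 99th percentile is 1.49 and 1.57 against 1.77 and 1.80.

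The stretch differed from the 2 other low regions mainly in the upper part of its values, and not only in the tail. Plates 37 to 51 of TA (1351 tiles) had medians of −0.74 and −0.68 in replicates 1 and 2, and plates 17 to 29 of TC (1070 tiles) had −0.72 and −0.79. The 5th percentile in replicate 1 was −1.15 in the stretch, −1.14 in TA 37 to 51 and −1.20 in TC 17 to 29. In replicate 2 it was −1.30, −1.25 and −1.32. The low ends were thus within 0.1 of each other in both replicates. The 75th percentile of the mean was −0.19 in the stretch, −0.50 in TA 37 to 51 and −0.52 in TC 17 to 29. The 95th percentile in replicate 1 was 0.86 in the stretch against 0.01 and −0.07, and in replicate 2 it was 0.74 against 0.17 and 0.05. Tiles called above made up 10.7% of the stretch, 3.40% of TA 37 to 51 and 1.50% of TC 17 to 29. Those called below made up 71.1%, 87.4% and 90.7%. Because all these regions were picked on the ratios compared here, the differences were not tested. The stretch had the highest 95th percentile of these regions in both replicates.

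Between its median and its 95th percentile the stretch spanned about as much as the rest of the TA series. That distance was 1.34 log units in the stretch and 1.37 in all other TA tiles, against 0.80 in TA 37 to 51 and 0.75 in TC 17 to 29. The median interquartile range within a plate was 0.617 in the 8 plates of the stretch, 0.673 in the other TA plates and 0.394 in plates 37 to 51. Within the stretch the interquartile range went from 0.401 in plate 24 to 1.13 in plate 26, so its plates were not equally even.

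Levels in the stretch changed slowly from tile to tile. The median absolute step between adjacent tiles was 0.178 log units over 712 pairs, against 0.260 over 8589 pairs in the rest of the series, and 4.21% of the pairs in the stretch differed by 1 or more, against 8.45%. The correlation of adjacent tiles was 0.730, and it was 0.588 at 2 tiles, 0.380 at 5 and 0.153 at 10. In the 10 plates before the stretch the values at these distances were 0.513, 0.182, 0.161 and 0.041. In plates 29 to 36 they were 0.610, 0.410, 0.180 and 0.054, and in plates 37 to 51 they were 0.635, 0.471, 0.246 and 0.119. With plate medians taken off, the correlation of adjacent tiles in the stretch was 0.729. With replicate 1 at a tile set against replicate 2 at its neighbour, and the reverse, the average was 0.668. All these pairs share the same 2 preparations and many share tiles, and the correlations are given as descriptions.

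**Figure D5:**
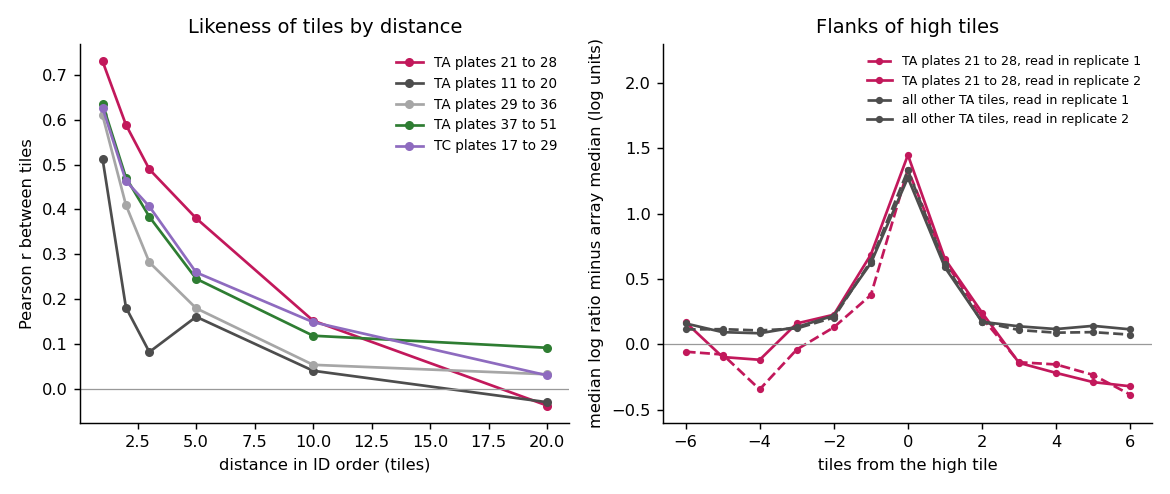
Left, Pearson r between the mean log ratios of tiles (vertical axis) against their distance in ID order (horizontal axis, tiles) in 5 groups of plates; right, median log ratio minus the array median (vertical axis, log units) around tiles at 1 or higher, chosen in one replicate and read in the other, in plates 21 to 28 and in all other TA tiles. The curve of plates 21 to 28 is the highest up to 10 tiles, where it meets TC plates 17 to 29, and its high tiles fall below 0 from 3 tiles to the right.

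The sharpest steps in the stretch were the borders of its high tiles. Apart from those around TA21A05, the largest was at TA27A07, a lone tile at 1.47 in replicate 1 and 1.32 in replicate 2. It stood 2.17 above the tile before it and 2.42 above the one after it, TA27A08. At TA27E08 (mean 1.29) the rise from the tile before was 2.18, and at TA26D05 it was 2.05. In all, 6 of the 712 pairs of adjacent tiles differed by 2 or more.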

How the data were processed

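The values analysed, handled as log2, are the authors' deposited log ratios of the IP and input channels with 1 column per array. Their base, numerator, normalization and software were not given in the sources used here. As deposited, the medians over all tiles were −0.737 and −0.925 in replicates 1 and 2. Rows without a value (93 of 21800) were left out, the columns of a dye-swap pair were averaged, and each replicate's median over all tiles was taken off. The test of each tile against 0 used limma 3.58.1 and R 4.3.3 (intercept, eBayes, two-sided, Benjamini-Hochberg over 21707 tiles, threshold 0.05). The prior had an SD of 0.184 and 134 degrees of freedom, beside 1 residual degree, and the smallest absolute mean called was 0.281, so a call is close to a fixed limit on the mean. The fit was tested on simulated data. Descriptions used Python 3.11.15 and numpy 2.4.6. The labels do not say whether the preparations came from separate cultures, so the tests cover the spread between these 2 preparations. Precision is limited by the number of preparations (n = 2).

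The members, the tiles compared and the tests were chosen with earlier results of these data known. Tiles were named by rule: the 5 highest and 5 lowest, the 3 longest runs called above, 4 tiles on each side of both edges, the longest run at −1 or lower and the largest disagreement. TA27A07, TA27A08, TA27E08, TA21A06 and the further runs were named after their values were seen. Alternatives were other centrings, scaling, variance models, thresholds, edge windows and each replicate alone.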

Additional observations from a re-analysis of the deposited data

How the results depend on the processing

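The zero point set most of what changed. With values as deposited the median of the stretch was −1.42, 19 tiles were called above in 13 runs (longest 3), 659 were called below, 4 lay at 1 or higher and 540 at −1 or lower. Centring on the mode of each replicate, a rise of 0.26 on average, gave a median of −0.32, 114 tiles called above and 376 below, a longest run of 10 tiles, and 37 and 13 tiles at 1 or higher and −1 or lower. As deposited, 12 named tiles called above had values below 0, namely TA20H10 (−0.0566), TA21A01 (−0.46), TA25C08 (−0.12), TA25C09 (−0.49), TA25C12 (−0.0550), TA26E07 (−0.0905), TA26E11 (−0.32), TA27F05 (−0.55), TA27F08 (−0.24), TA27F09 (−0.34), TA28H09 (−0.34) and TA28H11 (−0.50). The shift itself is the cause. The mean over tiles was −0.46 in place of a median of −0.58. Against other TA tiles without plates 37 to 51 the stretch lay at −0.56, and against plates 11 to 20 and 29 to 36 alone, chosen after seeing the data, at −0.58. The start step was −0.0402 with 12 tiles and −0.88 with 96. The neighbour correlation was 0.668 across replicates, and 0.702 to 0.721 without 1 replicate. Without 1 replicate the median ran from −0.63 to −0.54, the difference from other TA tiles from −0.49 to −0.42, the start step from −0.59 to −0.38, tiles at 1 or higher from 25 to 26 and tiles at −1 or lower from 103 to 108. With n = 2 each replicate lies within 1 SD of the mean by construction. A fit to 1 replicate has no residual degrees of freedom, so it gave no calls. Robust or trended eBayes, scaling and a threshold of 0.01 left 63 to 76 tiles called above and 483 to 510 below, and centring on the TA median left 98 and 446. No paired analysis was possible because there is 1 group.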
